A study of Mus musculus with 48 samples.

Results

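The comparison described here is that of p110αhep-/- with p110αhep+/+ mice that were fed on a high-fat diet (HFD). Its members are the liver arrays whose sample titles carry both HFD and fed, 6 of each genotype, which makes 12 of the 48 arrays of the study. The study crossed loss of the PI3K catalytic subunit p110α in hepatocytes with diet (HFD or a control, CTRL, diet) and nutritional state (fed or fasted), and it hybridized the liver RNA of 1 mouse to each one-colour Agilent array. It asked how far hepatocyte PI3Kα sets liver gene expression in steatosis. The p110αhep-/- mice were albumin-Cre+/- p110α flox/flox, and the controls were floxed littermates without the Cre transgene (albumin-Cre-/-), on a C57BL/6J background. All were males, 12 weeks old when the diet began, and they ate the HFD, with 60% of its calories from fat, for 12 weeks. They had food at all times until they were killed at Zeitgeber time 16, which lies in the dark phase when mice eat. The albumin promoter drives Cre in hepatocytes, so the other cells of the liver keep p110α, and whole liver RNA was measured. In bulk tissue, fewer cells of a type and less RNA per cell cannot be told apart.

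PI3Kα is the lipid kinase that carries the insulin signal from the insulin receptor substrates to AKT. In the fed liver, AKT keeps FOXO transcription factors out of the nucleus, which restrains gluconeogenic genes, and it favours SREBP-1c and ChREBP, which drive glycolysis and fatty acid synthesis. SREBP-2 drives cholesterol synthesis, and PPARγ, which is raised in fatty liver, drives lipid droplet genes such as Cidea and Cidec. With HFD, the liver stores triglyceride, and resident Kupffer cells are joined by monocyte-derived and lipid-associated macrophages.

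Values below are normalized log2 signals, so a difference of 1 is a change of 2-fold. Levels are compared between samples of the same probe and never between genes. A log2 fold change is p110αhep-/- minus p110αhep+/+. A gene was called when limma's Benjamini-Hochberg adjusted p was at most 0.05 and the fold change exceeded 1.5, and only called genes are said to have risen or fallen. The control arrays of replicates 2 and 6, were almost the same: over the 500 most variable genes, the SD of their difference was 0.2, against at least 0.509 in the other 119 pairs of arrays within a group and 0.201 between repeated spots of a probe on these same arrays. They differed by less than the noise between repeated spots, so they were averaged and counted as 1 sample, which leaves 6 p110αhep-/- samples against 5 controls. The arrays had 50.6% to 57.4% of probes well above background. One p110αhep-/- array, replicate 3, stood apart from its group and had the lowest array weight in the fit (0.35, against 0.82 to 1.86 for the others of both groups). One control sample had high B cell genes (Jchain at 11.21 against 7.59 to 8.52 in the other controls).

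Of 20468 genes tested, 1234 (6.03%) were called. Of these 1234, 442 rose (2.16% of the genes tested) and 792 fell (3.87%). By adjusted p alone, with no fold threshold, 6327 genes (30.9%) were called, and these split almost evenly into 3155 higher and 3172 lower. The median log2 fold change of all genes was 0.03. Samples of the 2 genotypes did not overlap for 2902 genes (14.2%), with the p110αhep-/- samples higher for 6.69% of all genes and lower for 7.49%. Most listed enzymes of fatty acid synthesis (13 of 17) and cholesterol synthesis (16 of 21) and most markers of lipid-associated macrophages (8 of 9) fell, as did 13 of 24 interferon-stimulated, 13 of 27 cell cycle and 9 of 21 lipid droplet genes, while 10 of 26 genes of amino acid breakdown rose. The plot of all list members gives these groups side by side.

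**Figure D1:**
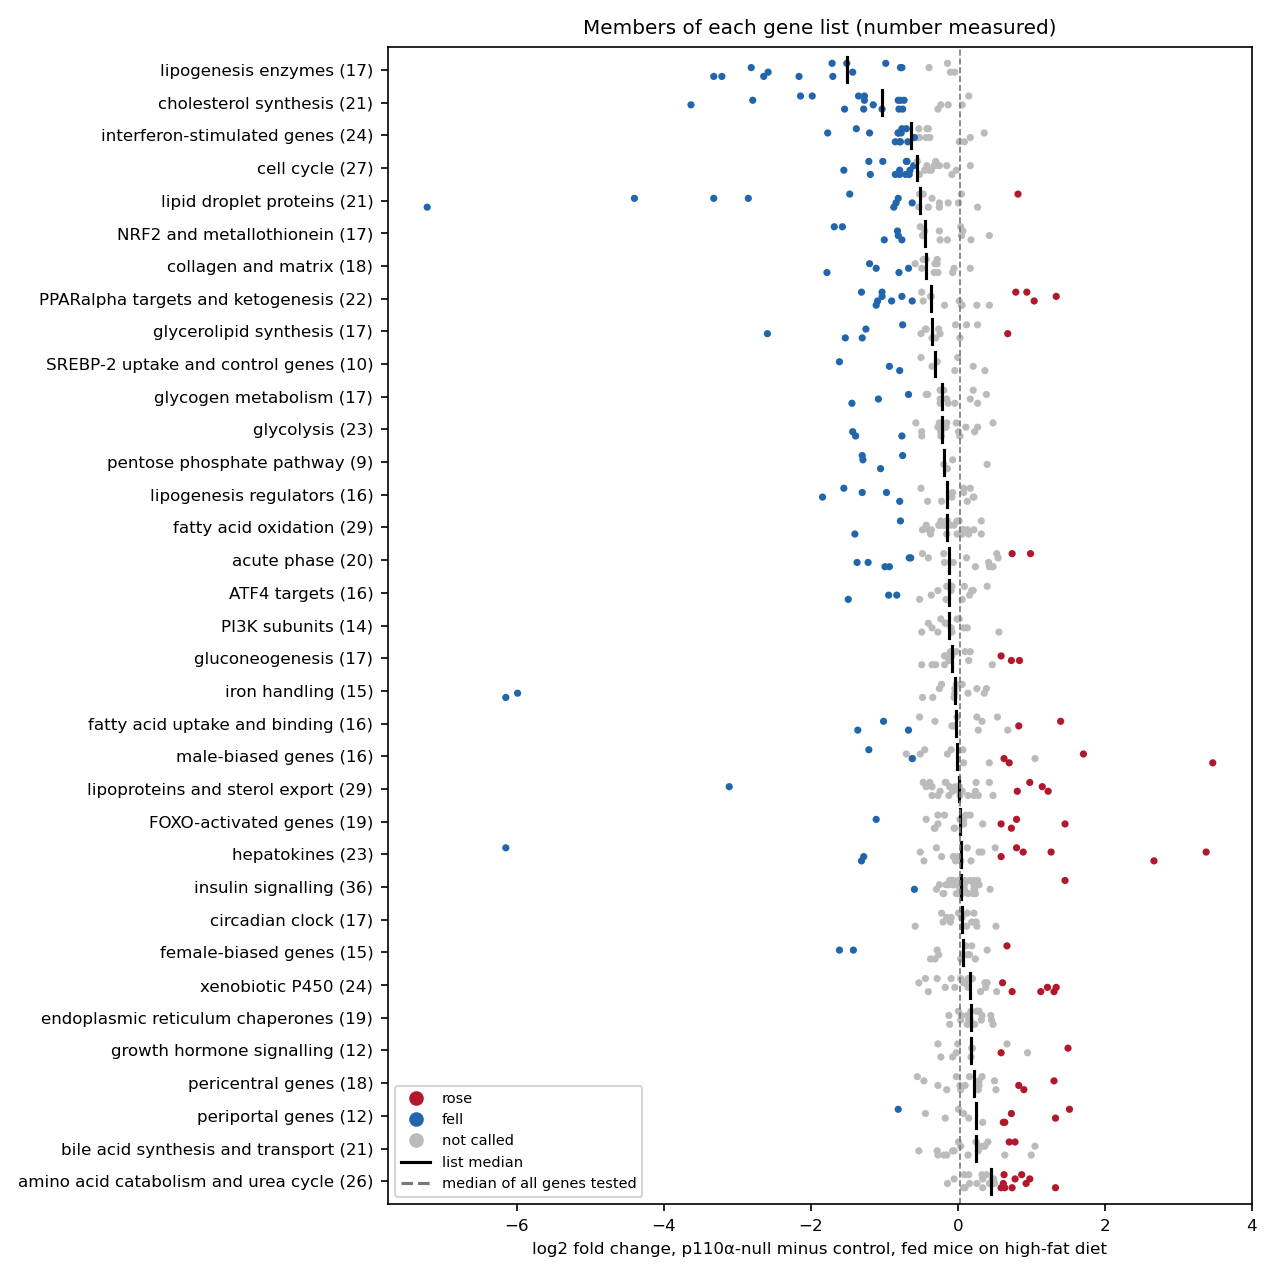
Each dot is 1 measured gene of a list, placed by its log2 fold change (p110αhep-/- minus p110αhep+/+, 6 against 5 samples, fed mice on HFD). Red genes rose, blue genes fell, grey genes were not called, black bars are list medians and the dashed line is the median of all genes tested (0.03). Lipogenesis enzymes (median -1.51) and cholesterol synthesis (median -1.03) lie farthest to the left, and amino acid catabolism and urea cycle (median 0.45) farthest to the right.

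The targeted gene and its pathway were read first. Pik3ca, which encodes p110α, had log2 levels of 12.6, 12.74, 12.74, 12.79 and 12.99 in the 5 controls, and a lowest, median and highest level of 13.08, 13.33 and 13.56 in p110αhep-/- mice. The genotypes did not overlap, and the p110αhep-/- samples were the higher. The log2 fold change was 0.56 (SE 0.08, adjusted p = 1.43e-06), which is under the fold threshold. The probe therefore gave no check of the deletion, which removes internal exons, and every direction here takes the genotype labels as given. Among the 14 PI3K subunit genes, 0 were called in the limma fit, while 6 had an unadjusted p under 0.05, a threshold that 40.8% of all genes tested passed. The count of calls takes the brightest probe of each gene, and 2 of 3 probes of Pik3c2g, a class II subunit, were called lower (down to -0.72) while its brightest gave -0.08. Pik3ca passed the fold threshold, upward, in 5 of 31 alternatives. Pik3r1, the p85α regulatory subunit, had a log2 fold change of -0.49 (adjusted p = 0.00332) and Pik3cb, the p110β catalytic subunit, one of -0.35 (adjusted p = 0.00332), both under the fold threshold.

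Of 36 measured genes of insulin signalling, 1 rose and 1 fell, with a median of 0.05, near the shares of all genes (2.16% rose and 3.87% fell). Irs2, an insulin receptor substrate that FOXO factors activate, was at 9.08, 9.15, 9.24, 9.57 and 10.19 in controls and ran from 10.02 through a median of 11.02 to 11.51 in p110αhep-/- mice. The groups touched only at 1 control sample. Irs2 rose by 1.46 (SE 0.28, adjusted p = 8.02e-05). Mtor, the kinase at the centre of both mTOR complexes, was the gene that fell, with a log2 fold change of -0.59 (SE 0.08, adjusted p = 7.23e-07), and it lost its call in 13 of 31 alternatives. The insulin receptor gene Insr had a log2 fold change of 0.03 (adjusted p = 0.796), and Akt1 one of 0.44 (adjusted p = 4.28e-06), under the fold threshold.

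Genes that FOXO factors activate were called in both directions. Of 19 measured, 4 rose and 1 fell, and the median was 0.03. Igfbp1, a classic FOXO1 target that insulin represses, was at 12.61, 13.38, 14.2, 14.86 and 15.07 in controls and between 12.52 and 15.55 (median 14.16) in p110αhep-/- mice. Both genotypes were spread over the same wide range. Its log2 fold change was -0.05 (SE 0.47, adjusted p = 0.949). Those that rose were Irs2, Fst (0.8, adjusted p = 0.000431), which encodes the secreted activin antagonist follistatin, Pck1 (0.73, adjusted p = 0.00887), the cytosolic PEP carboxykinase of gluconeogenesis, and Ppargc1a (0.59, adjusted p = 0.00277), a coactivator of gluconeogenic and mitochondrial genes. The one that fell was Pdk4, a brake on pyruvate dehydrogenase (-1.11, SE 0.41, adjusted p = 0.038), and its call was lost in 10 of 31 alternatives, among them each washing batch alone and the omission of any 1 of 6 different arrays. Ppargc1a lost its call in 14 of 31, among them the replicate block. In the list of 17 gluconeogenic genes, which shares Pck1 and Ppargc1a, 3 rose and 0 fell (median -0.08). The third was Got1, the cytosolic aspartate aminotransferase (0.84, adjusted p = 0.00829). G6pc, the glucose-6-phosphatase that releases glucose from the cell, had a log2 fold change of -0.18 (SE 0.22, adjusted p = 0.571). Within washing batch 2 alone, 0 gluconeogenic genes rose. Without the averaged control sample, 2 FOXO-activated and 1 gluconeogenic gene rose.

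The largest rises among genes with non-overlapping samples were led by secreted proteins. Tff3, a trefoil peptide of mucosal surfaces, was at 6.38, 6.47, 6.74, 7.12 and 7.15 in controls and at 7.61, 11.64 and 14.42 (lowest, median, highest) in p110αhep-/- mice. Every p110αhep-/- sample was above every control, and they were spread over almost 7 log2 units. The log2 fold change was 3.79 (SE 0.59, adjusted p = 3.49e-06). Igfbp2, a secreted binding protein of insulin-like growth factors, was at 11.42, 12.36, 12.38, 12.4 and 12.54 in controls and at 15.49, 15.56 and 16.15 in p110αhep-/- mice. Here the spread was narrower than for Tff3, although the control at 11.42 stood below the others. The fold was 10.4 (log2 fold change 3.38, SE 0.19, adjusted p = 2.5e-17). Enho, which encodes the peptide adropin, rose by 2.67 (SE 0.29), from 10.23 to 11.73 in controls to 12.34 to 14.68. Tango6, a gene linked to Golgi organization, rose by 3.06 (SE 0.18) at its brightest probe, but a second probe gave 0.01 and was not called, and the median over both was 1.54. Acmsd, an enzyme that diverts tryptophan breakdown away from NAD synthesis, rose by 2.42 (SE 0.24).

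Others among the 15 largest rises were the Wnt antagonist Wif1 (2.08), the vasopressin receptor Avpr1a (1.86), Susd4 (1.71), a regulator of complement, the growth factor receptor Egfr (1.7) and the translation repressor Eif4ebp3 (1.61). Wif1 and B930025P03Rik (2.3), an unnamed transcript, were above background on 1 of 6 control arrays and on 6 of 6 p110αhep-/- arrays. With the control signal near background, the size of their rise is uncertain, and it ran from 1.5 to 3.9 for Wif1 and from 1.44 to 4.48 for B930025P03Rik over the alternatives. Rnase4 (2.26) and Ang2 (1.6), secreted ribonucleases of 1 gene family, also rose, but probes of such close relatives may share signal. The last were 2 transcripts known only by Ensembl identifiers (1.68 and 1.62).

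Among genes with non-overlapping samples, the 3 deepest falls were those of lipid droplet and adipocyte genes. Cidea, a lipid droplet protein that fuses droplets, was at 12.02, 12.69, 13.25, 13.44 and 15.02 in controls and at 5.23, 5.95 and 6.86 in p110αhep-/- mice. The gap between the groups exceeded 5 log2 units, and 4 of 6 p110αhep-/- arrays were above background. Cidea fell by 7.22 (SE 0.51, adjusted p = 1.9e-14). Cidec, its close relative, was at 13.5, 13.53, 13.91, 14.18 and 14.72 in controls against 8.73, 9.11 and 11.09. It fell by 4.4 (SE 0.44, adjusted p = 2.25e-10). Cfd, the secreted protease adipsin, which is best known from fat cells, fell by 4.13 (SE 0.67, adjusted p = 6.48e-06), from 13.07 to 13.58 in controls to 6.65, 8.89 and 10.9 (lowest, median, highest). Other fat cell genes measured were not called. Plin1 was above background on 3 control arrays and 1 p110αhep-/- array, with a log2 fold change of 0.05. Lep, the leptin gene, had one of 0.54 and was called higher in 8 of 31 alternatives. Adipoq was not measured.

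Also among the 15 largest falls were Wfdc2 (-3.84), a secreted protease inhibitor, Aqp8 (-3.62), a channel for water and hydrogen peroxide, the lipases Pnpla5 (-3.6) and Pnpla3 (-3.32), and the cholesterol synthesis enzyme Sqle (-3.63). Adgrv1 (-3.13), an adhesion receptor, Ly6d (-3.12), a surface protein, BC049987 (-3.54) and Acacb (-3.21) completed the named genes. Dct, the dopachrome tautomerase of pigment cells, was also in this list at -3.74 (SE 0.28), but a second, dimmer probe of the gene gave 0.3 and was not called. The 2 probes for predicted non-coding RNAs, at chr9:78116834-78116893 and chr19:5845052-5845111 (mm9, as given in the files), fell, with log2 fold changes of -4.02 and -3.11. A second probe of the transcript on chromosome 19 gave 0.08 and was not called.

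**Figure D2:**
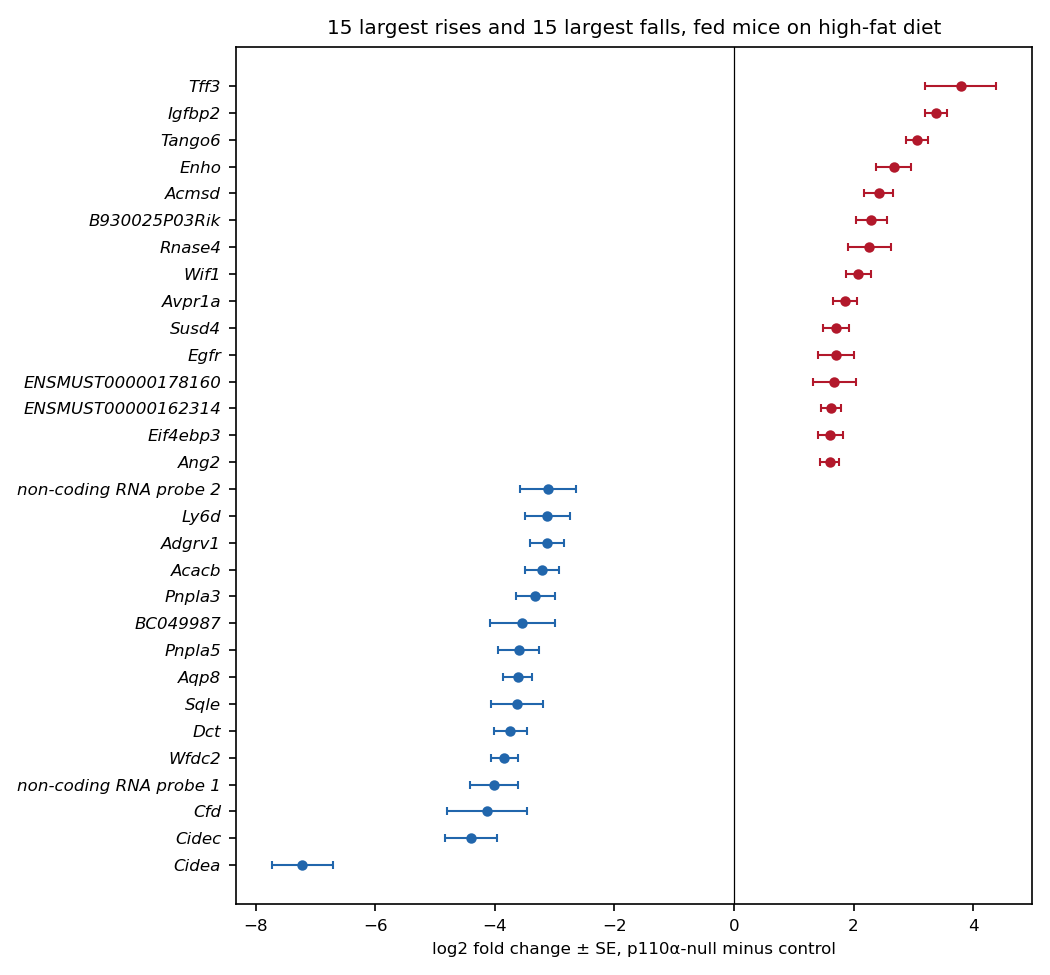
Log2 fold change (p110αhep-/- minus p110αhep+/+, fed mice on HFD) of the 15 largest rises (red) and 15 largest falls (blue) among called genes whose samples did not overlap. Bars are standard errors from the limma fit over 6 and 5 samples. Tff3 has the largest rise (3.79) and one of the widest errors (0.59), and Cidea the deepest fall (-7.22).

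Most enzyme genes of fatty acid synthesis fell. Of 17 lipogenesis enzymes, 13 fell, 0 rose, and all 17 had log2 fold changes below 0, with a median of -1.51. The genotypes did not overlap for 11 of them. Acly, which makes the cytosolic acetyl-CoA from which fatty acids and sterols are built, was at 15.7, 15.76, 15.88, 15.98 and 16.28 in controls and at 13.45, 13.77 and 14.08 in p110αhep-/- mice. The log2 fold change was -2.16 (SE 0.16, adjusted p = 2.18e-13). Fasn, the fatty acid synthase, was at 17.05, 17.22, 17.46, 17.78 and 17.89 against 14.25, 14.87 and 15.42, a fall of 5.98-fold (log2 fold change -2.58, SE 0.2). No sample of one genotype reached the other for either gene. Acaca and Acacb encode the acetyl-CoA carboxylases of the cytosol and the mitochondrial surface. Acaca fell by 1.51 (SE 0.13) and all 6 of its probes were called lower. Acacb fell by 3.21 (SE 0.29) at its brightest probe, from 13.09 to 13.65 in controls to 9.45, 10.15 and 11.28. Its 2 dim probes gave values between -0.13 and -0.09 and were not called.

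Several enzymes that supply NADPH or modify the new fatty acids also fell. Me1, the malic enzyme, was at 12.92, 13.51, 13.78, 13.79 and 13.83 in controls and at 9.3, 10.97 and 11.33 in p110αhep-/- mice (log2 fold change -2.81, SE 0.25, adjusted p = 9.24e-12). Scd1, which makes monounsaturated fatty acids, was at 16.23, 16.89, 17.05, 17.29 and 17.3 against 14.01, 14.27 and 15.72 (-2.64, SE 0.26, adjusted p = 1.07e-10). For both genes the groups stayed apart. The elongases Elovl6 (-1.71) and Elovl5 (-1.7), the acetate-activating enzyme Acss2 (-1.43), the desaturases Fads2 (-0.98) and Fads1 (-0.76) and the citrate carrier Slc25a1 (-0.78) fell by less. Those not called were Elovl1, Elovl3, Scd2 and Elovl2, between -0.39 and -0.04. Pnpla3, a lipase of lipid droplets that SREBP-1c induces, was at 7.14, 8.23, 8.82, 9.16 and 9.87 in controls and at 5.1, 5.55 and 6.18 in p110αhep-/- mice, where 4 of 6 arrays were above background. Pnpla3 fell by 3.32 (SE 0.33, adjusted p = 1.47e-10) at its brightest probe, while a second probe gave -1.46 and was also called lower. With the p110αhep-/- signal near background, the size of this fall is uncertain.

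Regulators of these enzymes were listed apart from them. Of 16 lipogenesis regulators, 5 fell and 0 rose (median -0.15). Srebf1, which encodes SREBP-1, was at 15.08, 15.25, 15.7, 15.72 and 15.82 in controls and at 14.74, 15.12 and 15.51 in p110αhep-/- mice. The groups overlapped, and the log2 fold change of -0.41 was not called (SE 0.22, adjusted p = 0.155). Mlxipl, which encodes ChREBP, had one of -0.08. Pparg fell by 1.55 (SE 0.19, adjusted p = 3.66e-08), from 11.17 to 11.64 in controls to 9.06, 9.77 and 10.5. Thrsp, a small protein that accompanies fatty acid synthesis, fell by 1.84 (SE 0.33), Mid1ip1, its relative that activates acetyl-CoA carboxylase, by 0.97 (SE 0.24), and Insig2, which holds SREBPs in the endoplasmic reticulum, by 0.79 (SE 0.19). Lpin1, a phosphatidate phosphatase and coregulator, fell by 1.3 (SE 0.42, adjusted p = 0.0161), but the call was lost in 7 of 31 alternatives. Among them were washing batch 1 alone (-0.22), the fit without array weights (-1.02), and the fits without replicate 2 (-0.8) or 6 (-1.08) of the p110αhep-/- mice or replicate 4 of the controls (-0.94).

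Some genes of the pathways that feed lipogenesis fell. Of 23 glycolytic genes, 3 fell and 0 rose (median -0.22). They included Pklr, the liver pyruvate kinase (-1.43, SE 0.23), and Gpi1, the isomerase of glucose-6-phosphate (-0.76, SE 0.1). The pentose phosphate pathway, the other source of NADPH, had 4 of 9 genes lower. Pgd, its second dehydrogenase, fell by 1.3 (SE 0.11), Tkt, the transketolase, by 1.29 (SE 0.11), Rpia by 1.05 (SE 0.12, with -0.4 at a second probe that was not called) and Taldo1 by 0.75 (SE 0.07). Its first enzyme G6pdx had a log2 fold change of -0.14 (adjusted p = 0.355). A second probe of Tkt gave 0.14 and was not called. In glycogen metabolism, 3 of 17 genes fell, among them Ppp1r3g, a subunit that directs protein phosphatase 1 to glycogen (-1.44, SE 0.32), and the branching enzyme Gbe1 (-1.08, SE 0.1), while the liver glycogen synthase Gys2 had a value of 0.27 (adjusted p = 0.0641). The third was Gyg, glycogenin, the primer of glycogen (-0.67, SE 0.08).

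Most enzyme genes of cholesterol synthesis fell. Of 21 measured enzymes, 16 fell, 0 rose, and the median was -1.03. The genotypes did not overlap for 15. Hmgcs1, which makes HMG-CoA, was at 13.98, 14.24, 14.34, 14.36 and 14.63 in controls and at 12.09, 12.73 and 13.13 in p110αhep-/- mice (log2 fold change -1.54, SE 0.18, adjusted p = 1.33e-08). In the isoprenoid steps, Fdps, the farnesyl diphosphate synthase, fell by 2.79 (SE 0.24, adjusted p = 6.21e-12), from 13.85 to 14.49 in controls to 10.65, 11.54 and 12.13, and Idi1, the isomerase before it, by 1.15 (SE 0.25).

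The sterol steps had genes that fell and genes that were not called. Sqle, the squalene epoxidase, was at 8.57, 9.45, 10.4, 10.41 and 10.62 in controls and at 5.74, 6.18 and 7.99 in p110αhep-/- mice, a fall of 12.4-fold (log2 fold change -3.63, SE 0.44). Its lowest control and its highest p110αhep-/- sample were 0.57 apart. Nsdhl, which demethylates lanosterol-derived sterols, was at 9.35, 9.58, 9.87, 9.88 and 10.32 against 7.3, 7.69 and 7.75 (-2.14, SE 0.19), and Cyp51, the lanosterol demethylase, at 10.08, 10.25, 10.25, 10.62 and 11.06 against 7.68, 8.64 and 9.34 (-1.98, SE 0.21). Both kept the genotypes apart. The rest of those called lay between -1.35 (Dhcr7, the last reductase of the pathway) and -0.73 (Mvk, mevalonate kinase), and Lss, the cyclase that makes lanosterol, was at -0.78. The genes not called included Hsd17b7, Ggps1, Lbr and Ebp, between -0.27 and 0.15. Srebf2 itself, the gene of SREBP-2, had a log2 fold change of -0.04 (SE 0.09, adjusted p = 0.783). Of 10 genes of the SREBP-2 system outside the pathway, 3 fell, among them Insig2 (-0.79), and 0 rose.

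**Figure D3:**
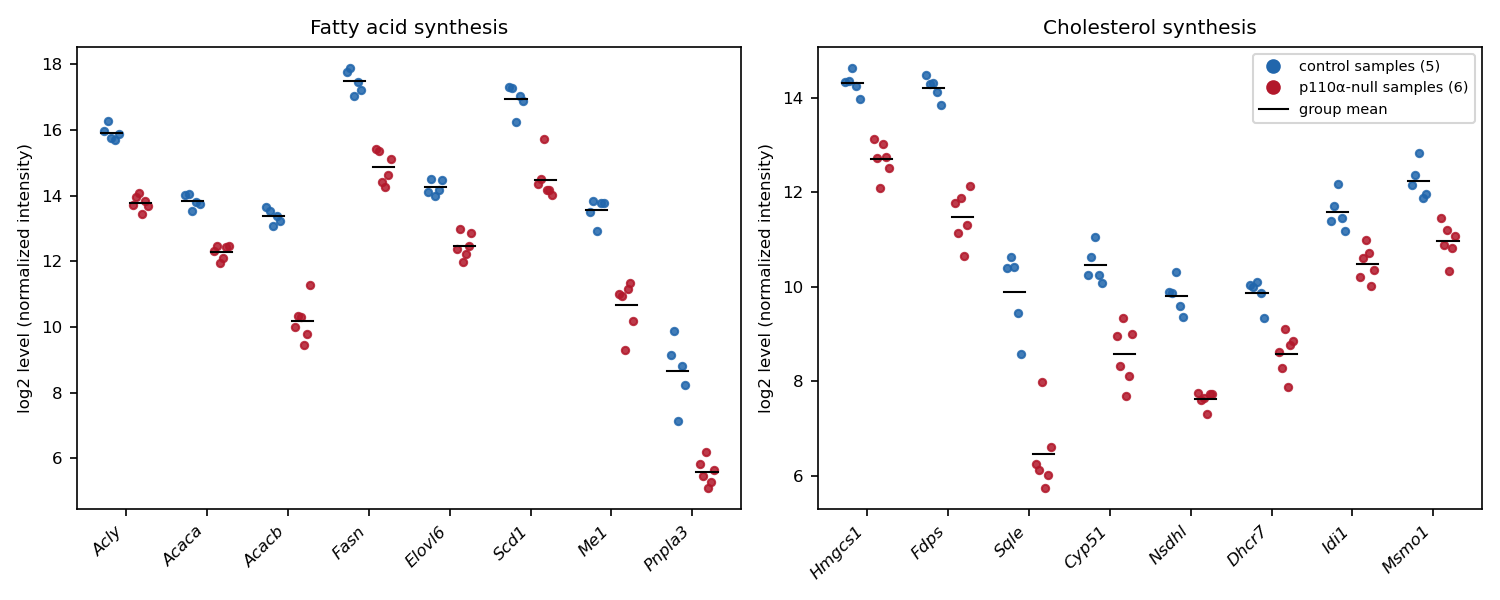
Normalized log2 level of 8 genes of fatty acid synthesis (left) and 8 genes of cholesterol synthesis (right) in each of 5 control samples (blue) and 6 p110αhep-/- samples (red), fed on HFD. Black bars are group means. The 2 groups do not overlap for any gene shown. The genes shown are a part of each list, and over the full lists the groups did not overlap for 11 of 17 lipogenesis and 15 of 21 cholesterol synthesis enzymes.

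The start of these genes can be read beside their levels. SREBPs act with NF-Y, a factor whose core site is CCAAT, so CCAAT was searched on both strands in the 300 bases around gene starts (250 before and 50 after) of RefSeq's table for GRCm38.p6, which has promoters for 27025 genes. At least 1 promoter held it in 41.1% of all these genes, in 16 of 17 cholesterol synthesis genes with an entry (94.1%) and in 9 of 13 lipogenesis enzymes (69.2%). A form of the sterol regulatory element, TCACNCCAC, was in 1.44% of all genes, in 1 of the 17 (Hmgcs1) and in 0 of the 13. A match is a description of these letters in this window and not a measured binding site. The 160 bases just before the start are shown for 5 cholesterol synthesis genes and 3 genes of fatty acid synthesis that fell, 5′ to 3′ on the strand of the gene, with CCAAT or its complement in capitals. Hmgcs1 lies at chr13:119690191-119690350 (plus strand), Cyp51 at chr5:4104698-4104857 (minus), Nsdhl at chrX:72918361-72918520 (plus), Idi1 at chr13:8885446-8885605 (plus), Lss at chr10:76531445-76531604 (plus), Fasn at chr11:120824548-120824707 (minus), Acacb at chr5:114165358-114165517 (plus) and Thrsp at chr7:97417551-97417710 (minus).
Hmgcs1: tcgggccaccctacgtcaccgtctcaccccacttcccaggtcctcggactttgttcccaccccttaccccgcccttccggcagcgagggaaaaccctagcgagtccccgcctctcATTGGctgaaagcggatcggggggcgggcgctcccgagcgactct
Cyp51: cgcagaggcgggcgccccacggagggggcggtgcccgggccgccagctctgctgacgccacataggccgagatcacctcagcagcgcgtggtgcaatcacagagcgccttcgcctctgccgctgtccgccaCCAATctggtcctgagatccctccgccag
Nsdhl: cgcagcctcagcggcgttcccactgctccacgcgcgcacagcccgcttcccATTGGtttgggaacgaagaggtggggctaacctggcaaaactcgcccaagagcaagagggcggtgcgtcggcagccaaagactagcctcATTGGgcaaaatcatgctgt
Idi1: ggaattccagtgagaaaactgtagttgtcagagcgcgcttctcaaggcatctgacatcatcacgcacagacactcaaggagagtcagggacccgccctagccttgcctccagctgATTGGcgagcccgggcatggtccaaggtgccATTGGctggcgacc
Lss: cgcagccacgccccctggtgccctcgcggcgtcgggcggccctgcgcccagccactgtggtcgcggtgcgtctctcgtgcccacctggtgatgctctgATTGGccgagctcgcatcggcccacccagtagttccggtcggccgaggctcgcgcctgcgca
Fasn: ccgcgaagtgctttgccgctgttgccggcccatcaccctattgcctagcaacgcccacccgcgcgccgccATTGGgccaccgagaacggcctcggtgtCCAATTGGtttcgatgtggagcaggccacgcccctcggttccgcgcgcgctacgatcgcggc
Acacb: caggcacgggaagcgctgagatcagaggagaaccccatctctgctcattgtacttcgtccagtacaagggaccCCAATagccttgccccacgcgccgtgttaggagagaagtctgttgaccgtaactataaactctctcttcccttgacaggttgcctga
Thrsp: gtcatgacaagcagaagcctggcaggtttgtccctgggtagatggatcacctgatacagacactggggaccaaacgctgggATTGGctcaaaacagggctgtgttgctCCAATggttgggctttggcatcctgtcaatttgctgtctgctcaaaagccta
Windows of Nsdhl, Idi1 and Thrsp hold 2 matches, that of Fasn 3 and the others 1. The match nearest the start lies between 14 bases (Idi1) and 87 bases (Acacb) before it.

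Genes of triglyceride synthesis and storage gave calls mostly in 1 direction. Of 17 glycerolipid synthesis genes, 5 fell and 1 rose (median -0.35). Gpam, the mitochondrial acyltransferase that begins glycerolipid synthesis, was at 14.36, 14.41, 14.48, 14.8 and 15.17 in controls and at 12.74, 13.16 and 13.27 in p110αhep-/- mice (-1.53, SE 0.15, adjusted p = 3.18e-10). Mogat1, a monoacylglycerol acyltransferase of fatty liver, fell by 2.59 (SE 0.27), and Gpd1, which makes glycerol-3-phosphate, by 0.75 (SE 0.12). Mogat2, a relative of Mogat1, fell by 1.25 (SE 0.18) at its brightest probe, while a second probe gave -0.15 and was not called. The gene that rose was not called without p110αhep-/- replicate 2. Both diacylglycerol acyltransferases were not called (Dgat1 0.12, Dgat2 -0.3). Among 21 lipid droplet proteins, 9 fell and 1 rose (median -0.52). Besides Cidea, Cidec and Pnpla3, Plin4 fell by 2.85 (SE 0.29), from 12.77 to 13.59 in controls to 9.04, 10.22 and 11.45, Fitm1, which aids droplet budding, by 1.47 (SE 0.19) and Plin2, the common droplet coat protein, by 0.87 (SE 0.19). The main triglyceride lipase Pnpla2 had a log2 fold change of 0.01 (SE 0.12, adjusted p = 0.962).

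Fatty acid uptake genes went both ways, with 2 of 16 higher and 3 lower (median -0.03). Cd36, a fatty acid translocase, was at 11.41, 11.49, 11.71, 11.72 and 11.97 in controls and at 9.25, 10.35 and 11.38 in p110αhep-/- mice, and it fell by 1.36 (SE 0.25, adjusted p = 5.98e-05). Lpl, lipoprotein lipase, was at 8.82, 9.46, 9.47, 9.64 and 10.16 against 10.49, 11.04 and 11.28, and it rose by 1.4 (SE 0.2, adjusted p = 4.22e-07). Neither gene's groups overlapped. Slc27a1, a fatty acid transport protein, rose by 0.83 (SE 0.13), and Fabp2, a fatty acid binding protein, fell by 1.01 (SE 0.18).

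Fatty acid oxidation gave few calls: 2 of 29 genes fell, 0 rose, and the median was -0.14. By adjusted p alone, 9 of the 29 were lower and 1 higher, against 15.5% and 15.4% of all genes. Cpt1a, which admits fatty acids to mitochondria, had a log2 fold change of -0.15 (SE 0.1, adjusted p = 0.259). The genes that fell are peroxisomal, Pex11a, a peroxisome division factor (-1.4, SE 0.14), and Acaa1b, a thiolase (-0.78, SE 0.13). PPARα targets split, with 4 of 22 higher and 8 lower (median -0.37), and Ppara itself stood at 0.05 and was not called. The omega-hydroxylases Cyp4a14 (1.34, SE 0.43), Cyp4a10 (1.04, SE 0.25) and Cyp4a31 (0.94, SE 0.25) rose, but these paralogs are alike in sequence and may share signal, and within washing batch 2 alone 0 genes of the list rose. Fgf21, a fasting hormone of the liver, fell by 1.31 (SE 0.25, adjusted p = 7.5e-05), the mitochondrial carrier Ucp2 by 1.03 (SE 0.1) and the acyl-CoA thioesterase Acot2 by 1.09 (SE 0.26).

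Amino acid breakdown had the highest median of the lists. Of 26 genes of amino acid catabolism and the urea cycle, 10 rose, 0 fell and 24 had log2 fold changes above 0, with a median of 0.45. Cps1, which commits ammonia to urea, was at 13.16, 13.5, 13.69, 13.71 and 13.72 in controls and at 14.78, 14.9 and 15.09 in p110αhep-/- mice. There was a gap of about 1 log2 unit between the groups, and the log2 fold change was 1.33 (SE 0.13, adjusted p = 2.16e-10). Hpd, of tyrosine breakdown, rose by 0.98 (SE 0.12). Cth, of transsulfuration, rose by 0.87 (SE 0.15), Agxt, which detoxifies glyoxylate, by 0.78 (SE 0.11), and Ahcy, which clears S-adenosylhomocysteine, by 0.74 (SE 0.11). Some other urea cycle steps were not called, among them Otc (0.26) and Ass1 (0.34), while Asl rose by 0.63, with -0.14 at its other probe.

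Zonation markers were called in both lists. Of 12 periportal genes, 5 rose and 1 fell (median 0.24), and of 18 pericentral genes, 3 rose and 0 fell (median 0.22). The mean level of the periportal list was higher in every p110αhep-/- sample (13.61 to 14.22 against 13.24 to 13.55), while that of the pericentral list overlapped (11.01 to 11.69 against 11.17 to 11.48), and the difference between the lists was not tested. Without the averaged control sample, 3 periportal genes rose. Periportal Cdh1, the E-cadherin gene, rose by 1.52 (SE 0.26) from 7.35 to 8 in controls to 8.56, 9.16 and 10.08. On the pericentral side Cyp1a2 rose by 1.31 (SE 0.16) and the glutamate transporter Slc1a2 by 0.9 (SE 0.11), while Glul, glutamine synthetase, had a value of -0.15 (adjusted p = 0.292). Of 24 drug-metabolising P450 genes and regulators, 6 rose and 0 fell. Besides Cyp1a2 these were Cyp2c54 (1.34), Cyp2c37 (1.22) and Cyp2c50 (1.13), which are close paralogs whose probes may share signal, the P450 reductase Por (0.74) and Cyp3a13 (0.61).

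Bile acid genes gave few calls, with 2 of 21 higher and 0 lower (median 0.25), and 1 of the calls was lost without any 1 of several arrays. Cyp7a1, the rate-limiting enzyme of bile acid synthesis, was at 9.37, 9.71, 10.02, 10.14 and 10.27 in controls and at 9.82, 10.73 and 11.44 in p110αhep-/- mice. Its log2 fold change of 1 was not called (SE 0.42, adjusted p = 0.0675). Lipoprotein and sterol export genes had 4 of 29 higher and 1 lower (median 0.02). Apom, which carries sphingosine-1-phosphate on HDL, was at 14.24, 14.43, 14.45, 14.47 and 14.5 in controls against 15.21, 15.71 and 16.02 (1.23, SE 0.09, adjusted p = 9.28e-14). The sterol exporters Abcg8 (1.15, SE 0.15) and Abcg5 (0.81, SE 0.16) and the HDL receptor Scarb1 (0.98, SE 0.09) rose with it. Apoa4, an apolipoprotein that rises with liver fat, was at 16.09, 16.11, 16.86, 16.91 and 17.37 in controls and at 12.71, 13.52 and 14.71 in p110αhep-/- mice, with a log2 fold change of -3.11 (SE 0.46, adjusted p = 1.37e-06). Apob, the backbone of VLDL, had a value of -0.12.

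Of 23 secreted liver proteins listed as hepatokines, 6 rose and 3 fell (median 0.04). Apart from Enho, Igfbp2 and Fst, those that rose were Fgl1 (1.27, SE 0.19), a fibrinogen-like growth factor, Fetub (0.89, SE 0.09), which encodes fetuin-B, and Igfals (0.59, SE 0.13), the partner of circulating IGF1, which lost its call in 15 of 31 alternatives. Gdf15, a stress hormone, fell by 1.28 (SE 0.34, adjusted p = 0.00398). Hamp, which encodes the iron hormone hepcidin, was at 11.14, 11.83, 13.51, 13.81 and 13.82 in controls. In p110αhep-/- mice its lowest, median and highest levels were 4.88, 6.32 and 14.86, and the highest, that of replicate 3, lay above every control. The fit gave a fall of 6.15 (SE 1.21, adjusted p = 0.000123), and one of 6.71 without replicate 3. Its neighbour Hamp2 was at 13.22 to 14.5 in controls and at 6.97, 7.73 and 13.28 in p110αhep-/- mice, where the highest was again replicate 3, and it fell by 5.99 (SE 0.87, adjusted p = 1e-06). Probes of these paralogs may share signal. The other 13 genes of iron handling were not called, among them the sensors Tfr2 (0.36) and Bmp6 (0.26).

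Growth hormone signalling and its targets gave single genes. Socs3, a feedback inhibitor of cytokine receptors, rose by 1.5 (SE 0.26, adjusted p = 2.53e-05), from 8.81 to 9.53 in controls to 9.83, 10.54 and 11.23. Ghr, the receptor, had a value of -0.07. Of 16 male-biased genes, 4 rose and 2 fell, and without p110αhep-/- replicate 6, 2 rose. Hsd3b5, a steroid dehydrogenase of male liver, was at 5.51, 5.7, 5.91, 6.59 and 7.25 in controls and at 6.06, 9.88 and 12.56 in p110αhep-/- mice. The groups overlapped at the low end, and the gene rose by 3.47 (SE 0.76, adjusted p = 0.000509). Its rise ran from 2.72 to 4.42 over the 30 alternatives with a value. Of 15 female-biased genes, 1 rose and 2 fell, the latter being Hao2 (-1.61), a peroxisomal oxidase, and the neurotrophin receptor Ntrk2 (-1.42). Without p110αhep-/- replicate 2, 0 genes of this list were called higher. Cyp2b9 had a value of -0.31 (adjusted p = 0.735).

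Stress programmes gave few calls outside the NRF2 list. Of 17 genes of NRF2 and metallothioneins, 6 fell and 0 rose (median -0.45). Without p110αhep-/- replicate 2 the median was -0.25, and 1 gene was called higher. Nqo1, a quinone reductase, fell by 1 (SE 0.18), Cbr3, a carbonyl reductase, by 1.68 (SE 0.18), from 8.68 to 10.32 in controls to 7.95, 8.07 and 8.42, and the glutathione transferases Gsta2 and Gstm3 by 1.57 (SE 0.33) and 0.82 (SE 0.14). Of 16 ATF4 targets, 3 fell, led by Ddit4, an inhibitor of mTORC1 (-1.49, SE 0.3). Of 19 chaperone and unfolded protein genes, 0 were called by limma at their brightest probe and 2 had an unadjusted p under 0.05 (40.8% of all genes). One of 3 probes of Dnajb11, a co-chaperone, was called higher (0.73). Of the 19 genes, 17 had values above 0, and Hspa5, the main chaperone of the endoplasmic reticulum, stood at 0.13 (adjusted p = 0.724). The clock list had 0 calls by limma among 17 genes (1 higher without p110αhep-/- replicate 2), 2 with an unadjusted p under 0.05, and Arntl, the clock activator also named Bmal1, stood at 0.26 (adjusted p = 0.458).

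Interferon-stimulated genes were called in 1 direction. Of 24, 13 fell and 0 rose, with a median of -0.63, and the genotypes did not overlap for 2, against 14.2% of all genes. Ifit1, an antiviral RNA binder, was at 6.85, 7.36, 7.51, 7.57 and 7.75 in controls and at 6.46, 6.65 and 7.72 in p110αhep-/- mice (-0.79, SE 0.2, adjusted p = 0.0021). Oasl1 was at 10.91, 11.07, 11.21, 11.25 and 11.54 against 9.78, 9.9 and 10.79, with no overlap (-1.2, SE 0.17, adjusted p = 6.62e-07). The chemokines Cxcl9 and Cxcl10, which interferon-γ induces, fell by 1.77 (SE 0.35) and 1.38 (SE 0.24). The highest p110αhep-/- sample was replicate 3, whose mean level over the list was 9.76, against 8.82 to 8.94 in the other 5 and 9.18 to 9.75 in controls. Within washing batch 1, 16 genes of the list fell, and within washing batch 2, which holds replicate 3, 2 fell and 1 rose.

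The bases before the start of 3 of these genes are shown for the same reason as above. The core of the interferon-stimulated response element was searched on both strands as 2 copies of GAAA with any 2 bases between them. At least 1 promoter held it in 3.99% of all genes of the RefSeq table and in 10 of 19 interferon-stimulated genes with an entry (52.6%). Ifit1 lies at chr19:34640729-34640888, Ifit3 at chr19:34583369-34583528 and Gbp2 at chr3:142620503-142620662 (GRCm38.p6, all plus strand), and capitals mark the match or its complement.
Ifit1: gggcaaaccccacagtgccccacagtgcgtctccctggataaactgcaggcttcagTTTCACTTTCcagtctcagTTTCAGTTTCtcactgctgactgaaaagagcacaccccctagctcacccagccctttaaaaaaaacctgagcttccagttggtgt
Ifit3: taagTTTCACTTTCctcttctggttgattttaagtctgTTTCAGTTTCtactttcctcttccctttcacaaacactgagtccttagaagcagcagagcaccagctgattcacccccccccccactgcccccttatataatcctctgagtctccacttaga
Gbp2: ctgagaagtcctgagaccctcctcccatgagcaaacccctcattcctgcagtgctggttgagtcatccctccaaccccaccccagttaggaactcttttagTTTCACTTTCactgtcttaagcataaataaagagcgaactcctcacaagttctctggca
Ifit1 and Ifit3 hold 2 matches in these 160 bases and Gbp2 1. Ifit3 and Gbp2, a guanylate-binding GTPase, fell by 0.81 (SE 0.19) and 0.77 (SE 0.23).

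Macrophage genes were read by the type they mark. Of 11 Kupffer cell markers, 0 were called by limma, 3 had an unadjusted p under 0.05 (40.8% of all genes), and 10 had values above 0. Clec4f, which marks Kupffer cells, had a log2 fold change of 0.21 (SE 0.13, adjusted p = 0.238). Of 9 genes of lipid-associated macrophages, 8 fell and 0 rose (median -0.96), and of 6 monocyte genes, 5 fell (median -0.67). Without replicate 1 of the p110αhep-/- mice, or without replicate 1 of the controls, 3 monocyte genes were called lower. Spp1, osteopontin, which bile duct cells also make, was at 11.04, 11.53, 11.56, 11.77 and 12.27 in controls and at 9.23, 9.42 and 9.66 in p110αhep-/- mice, well apart (-2.2, SE 0.19, adjusted p = 4.55e-12). Gpnmb, a glycoprotein of lipid-laden macrophages, fell by 1.45 (SE 0.2) and was above background on 1 of 6 p110αhep-/- arrays and 6 of 6 control arrays, so its size is uncertain and ran from -3.43 to -0.92 over the alternatives. Mmp12, macrophage elastase, was not well above background on any p110αhep-/- array, so its fall is given as a bound, at least 1.72-fold lower. The bound sets the mean of the controls against the higher, in each p110αhep-/- sample, of the probe's own level and the lowest level above background. Itgax, the CD11c integrin, fell by 1.29 (SE 0.22), and Trem2, the lipid receptor that defines these cells, by 0.95 (SE 0.29, adjusted p = 0.012). Fabp5 was the one not called (0.68, adjusted p = 0.0838). Ly6c2, which marks inflammatory monocytes, was at 11.51, 11.57, 11.67, 11.82 and 12.1 in controls, and every p110αhep-/- sample was lower, with a median of 10.24 and a highest level of 11.02 (-1.41, SE 0.17, adjusted p = 1.67e-08).

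Matrix genes went the same way with fewer calls, 5 of 18 lower and 0 higher (median -0.44). Col1a1, the main fibrillar collagen, was at 9.86, 9.99, 10.16, 10.2 and 10.65 in controls and at 7.47, 8.31 and 9.22 in p110αhep-/- mice (-1.78, SE 0.27, adjusted p = 2.28e-06). Col3a1 fell by 1.2 (SE 0.21) at its brightest probe, while its 2 dim probes gave values between -0.09 and -0.05. Col1a2 fell by 1.11 (SE 0.2), with -0.32 at a second probe that was not called. Of 9 stellate cell markers, 0 fell and 1 rose, a call lost without any 1 of several arrays, and Lrat, which esterifies retinol in these cells, had a value of -0.27 (adjusted p = 0.243). Of 12 hepatocyte markers, 1 rose (Cps1), 5 had values below 0, and the median was 0.03. The mean level of the list was higher in every p110αhep-/- sample (17.01 to 17.16) than in any control (16.74 to 16.92), but without Cps1 the samples overlapped (17.2 to 17.37 against 17.06 to 17.22). Its part in the lower immune and matrix genes was not tested. Alb, the albumin gene that defines liver, stood at -0.02, with levels of 18.89 to 18.95 in all samples. These lie at the top of the quantile-normalized scale, where its probe can hide a change, though no spot on these arrays was flagged as saturated.

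Of 27 cell cycle genes, 13 fell and 0 rose (median -0.55). The averaged control sample had the highest mean level of the list (9.06), and without it 7 were called lower. Mki67, the proliferation marker Ki-67, was at 8.12, 8.23, 8.39, 8.48 and 9.06 in controls and at 7.6, 7.73 and 8.49 in p110αhep-/- mice (-0.66, SE 0.16, adjusted p = 0.0014). Its call was lost in 4 of 31 alternatives, among them the fit without array weights and that without the averaged control sample. Rrm2, the ribonucleotide reductase subunit of S phase, fell by 1.21 (SE 0.21), and the replication helicase genes Mcm6 and Mcm5 by 1.19 (SE 0.28) and 1.02 (SE 0.31), the call of Mcm5 being lost in 3 of 31, among them that without the averaged control sample. Cdkn1a, the cell cycle inhibitor p21, fell with them by 1.55 (SE 0.4), against the direction its role in the list would give. The acute phase list had 6 of 20 lower and 2 higher. Without any 1 of replicates 2, 4 and 5 of the p110αhep-/- mice, 2 or 3 were lower, and without control replicate 4, 4 were higher. Saa1 and Saa2, serum amyloids alike in sequence, fell by 0.99 (SE 0.39, adjusted p = 0.0494) and 1.22 (SE 0.39), the first losing its call in 17 of 31 alternatives and the second in 4, and Lcn2, lipocalin-2, by 1.37 (SE 0.34). Itih3, an inhibitor heavy chain, rose by 0.99 (SE 0.15).

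Counts in these immune, matrix and cell cycle lists differed between washing batches, a label of the arrays. Within washing batch 1, 7 lipid-associated macrophage, 4 monocyte, 8 matrix and 9 cell cycle genes fell, and within washing batch 2 the counts were 3, 1, 3 and 2. Their medians stayed below 0 in both batches, being -1.35 and -0.53, -0.83 and -0.57, -0.57 and -0.19, and -0.55 and -0.43. By contrast 13 and 11 lipogenesis enzymes and 16 and 14 cholesterol synthesis genes fell. Of 10 sinusoidal endothelial markers, 1 fell and 0 rose (median 0.12), and Stab1, their scavenger receptor, stood at -0.27. T cell, B cell, neutrophil and muscle markers had 0 calls by limma, with 5 of 6, 0 of 4, 1 of 6 and 0 of 3 at an unadjusted p under 0.05 (40.8% of all genes). Without the averaged control sample, 2 T cell genes were called lower and 1 higher. In other lists of foreign tissues, Cela2a, a pancreatic elastase, rose by 1.56 (SE 0.22), while Cela1 and Ctrb1 each had a value of 0.21, and a second probe of Cela1 was called lower (-1.09). Bile duct markers had 2 of 7 lower, Spp1 and the keratin Krt19 (-0.94, SE 0.18), and 1 higher, Krt23 (0.96, SE 0.29). Of 4 erythroid genes, 1 rose, the anion exchanger Slc4a1 (0.8, SE 0.23), while Hbb-b1, a haemoglobin gene, had a value of 0.16 and Alas2, of haem synthesis, one of -0.38. The part of these cell types in the results above was not tested.

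**Figure D4:**
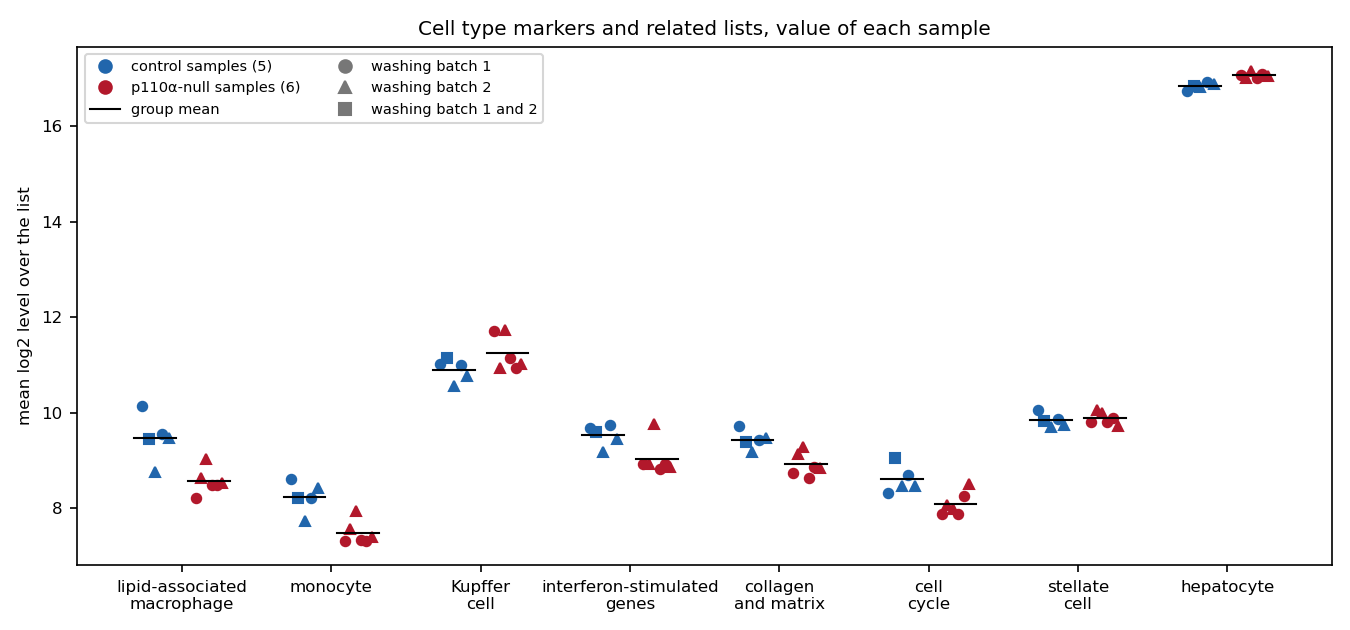
Mean log2 level over the measured genes of each list in every control sample (blue, 5) and p110αhep-/- sample (red, 6), fed on HFD. Marker shapes give the washing batch, the square being the averaged control pair, and black bars are group means. Lipid-associated macrophage and monocyte levels are mostly lower in p110αhep-/- samples, Kupffer and stellate levels overlap, and replicate 3 is the high red triangle among interferon-stimulated genes (9.76).

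The effect of p110α loss was then compared with that on CTRL diet in fed mice and with that in mice fasted on HFD. Each of those effects rests on 12 arrays of its own. On CTRL diet 315 genes rose and 445 fell (1.54% and 2.17%), and in fasted mice on HFD 473 rose and 861 fell (2.31% and 4.21%). A difference between effects was tested with an interaction term, here the effect on HFD in fed mice minus the other. It was called for 213 genes for diet (1.04%), 45 more positive (0.22%) and 168 more negative (0.821%) on HFD, and for 249 genes for nutritional state (1.22%), 118 more positive (0.577%) and 131 more negative (0.64%) in fed mice.

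Fatty acid synthesis differed by diet. For 7 of 17 lipogenesis enzymes the fall was deeper on HFD, and the list median was -1.51 there and -0.71 on CTRL diet. Scd1 had log2 fold changes of -2.64 on HFD and -0.56 on CTRL diet (difference -2.08, SE 0.36, adjusted p = 0.000777). For Fasn they were -2.58 and -0.73 (difference -1.85, SE 0.28, adjusted p = 0.000138), for Acacb -3.21 and -1.21 (difference -2, SE 0.4, adjusted p = 0.00389), and for Acly -2.16 and -0.95 (difference -1.21, SE 0.23, adjusted p = 0.00215). Acaca, Elovl6 and Me1 were the other 3. In cholesterol synthesis the medians were -1.03 and -0.49, and the difference was called for 2 of 21 genes, Cyp51 (-1.49, SE 0.29, adjusted p = 0.00249) and Pmvk (-0.72, adjusted p = 0.0364). Sqle, at -3.63 and -2.8, had a difference of -0.83 that was not called (adjusted p = 0.534). The cell cycle median was -0.55 on HFD and 0.07 on CTRL diet, with 4 of 27 differences called, and that of the matrix list -0.44 and 0.01, with 2 of 18 called.

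Nutritional state separated the same enzymes in another way. The fasted mice had been without food for 24 h when they were killed. In fasted mice Pnpla3 and Pnpla5 had log2 fold changes of 0.12 and -0.19, against -3.32 and -3.6 in fed mice, and the differences were -3.44 (SE 0.46, adjusted p = 1.45e-05) and -3.4 (SE 0.48, adjusted p = 2e-05). The levels of both genes in fasted mice are not given here, and whether they lay near background was not tested. Acly (-0.28 in fasted mice, difference -1.89, adjusted p = 2.78e-06), Acaca (-0.24, difference -1.27, adjusted p = 4.98e-05), Fasn (-0.79, difference -1.79, adjusted p = 0.000159) and Elovl6 (-0.39, difference -1.32, adjusted p = 0.00431) were also lowered more in fed mice. Scd1 was not, at -3.03 in fasted mice (difference 0.38, adjusted p = 0.673). Cholesterol synthesis had a median of -0.81 in fasted mice and 1 of 21 differences called. Interferon-stimulated genes had a median of -1.09 in fasted mice, where 19 of 24 fell, and the difference was called for Isg15 alone (0.96, adjusted p = 0.0175), which stood at -1.37 there and at -0.4 in fed mice.

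Other single genes are given by setting. Igfbp1, at -0.05 on HFD in fed mice, rose by 3.27 on CTRL diet (difference -3.33, SE 0.66, adjusted p = 0.00363). Hamp2, which fell by 5.99 on HFD, had a value of 0.75 on CTRL diet (difference -6.74, SE 1.22, adjusted p = 0.00124). Fabp5, a fatty acid binding protein, and Gpat3, a glycerol-3-phosphate acyltransferase, fell on CTRL diet by 2.13 and 2.43 but had values of 0.68 and -0.43 on HFD (differences 2.81, SE 0.42, and 2, SE 0.31). Ppp1r3g fell on HFD in fed mice (-1.44), had a value of 0.39 on CTRL diet and rose by 1.01 in fasted mice. Fgf21 fell by 1.31 in fed mice and had a value of 0.27 in fasted mice on HFD (difference -1.58, adjusted p = 0.00714). Igfbp2 rose in all 3, by 3.38, 2.21 and 3.06, and the difference by diet was called (1.17, SE 0.27, adjusted p = 0.0135). Cidea and Cidec fell in all 3, and their differences were not called for diet (-0.55 and -0.54) or for nutritional state (1.03 and -0.55).

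**Figure D5:**
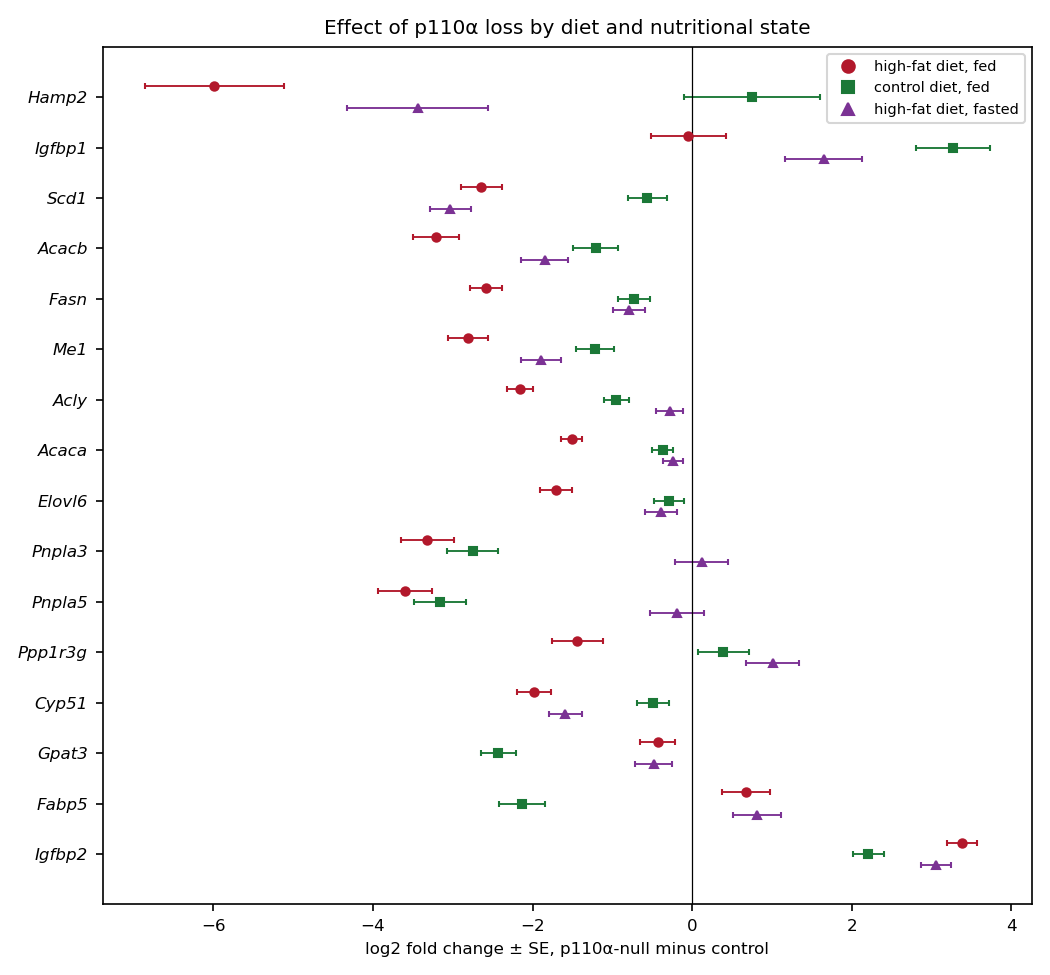
Log2 fold change (p110αhep-/- minus p110αhep+/+) of 16 genes in fed mice on HFD (red circles), fed mice on CTRL diet (green squares) and fasted mice on HFD (purple triangles). Bars are standard errors. Fasn, Acly and Acaca are lowest in fed mice on HFD, Pnpla3 and Pnpla5 lie near 0 in fasted mice, and Igfbp1 lies near 0 in fed mice on HFD and at 3.27 on CTRL diet.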

How the data were processed

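Liver RNA was labelled with Cy3 and hybridized to Agilent mouse 8x60K one-colour arrays, 1 mouse each, scanned with Agilent Feature Extraction 10.10.1.1. The deposited scanner files hold spot intensity, of which the median signal was used. The authors also deposited log2 values, which they filtered, corrected for washing batch and quantile normalized, and these served as an alternative. Per their methods, the median signal was log2-transformed here, control spots were left out, repeated spots averaged, and 30793 of 56605 probes kept that were well above background on at least 5 of 6 arrays of a group. Washing batch was removed with group means protected, and arrays were quantile normalized. The limma fit (version 3.58.1, R 4.3.3) used array weights over 47 samples of all 8 groups, with Benjamini-Hochberg adjustment over all probes kept. On simulated data the fit was tested before use.

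A gene is represented by its brightest probe, named through accession (21027 probes), symbol or synonym (4665) or the file's own name (5101). Replicates 2 and 6 of the control group were averaged after seeing the data, since their values differed by less than repeated spots. The labels say that each array is 1 mouse. The genes named are the PI3K subunits, the first and up to 4 of the most changed members of each of 49 lists, and the 15 largest rises and falls whose samples did not overlap; others named beside them were chosen after their values were seen. The members and lists were chosen with earlier results of these data known. Alternatives changed background, scaling, filter, weights, batch, slide, replicate block, samples in the fit and probes per gene. The authors' own comparison columns were not used, and a few single genes are not reported here.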

Additional observations from a re-analysis of the deposited data

Results flagged for a closer look

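Within each genotype, the highest and the lowest sample were compared with the nearest of the others, relative to the range of the group. Of 498 groups of values looked at (200 genes and 49 lists in 2 genotypes), 46 held a sample that stood apart, and chance alone gives about 1 in 20. Replicate 3 of the p110αhep-/- mice accounted for 25 of the 46. Its log2 levels, each given against the nearest other p110αhep-/- sample, were high for Cxcl10 9.57 against 8.36, Cxcl9 9.45 against 8.08, Elovl2 14.78 against 14.17, Fads2 13.49 against 12.72, Fgf21 8.89 against 7.93, Gbp2 8.82 against 7.99, Gpnmb 6.04 against 5.1, Hamp 14.86 against 7.95, Hamp2 13.28 against 8.13, Ifit1 7.72 against 6.68, Ifit3 9.35 against 8.85, Scd1 15.72 against 14.51, the list of interferon-stimulated genes 9.76 against 8.94, the list of iron handling 12.32 against 11.45 and the list of periportal genes 14.22 against 13.78. They were low for Aqp8 9.48 against 11.12, BC049987 5.63 against 7.49, Cyp2b9 12.23 against 14.36, Cyp2c50 15.09 against 15.98, Cyp2c54 14.93 against 15.78, Elovl3 11.46 against 12.9, Fitm1 7.58 against 9.05, Gpd1 14.24 against 14.99, Wif1 5.71 against 7.09 and the list of bile acid synthesis and transport 12.74 against 12.98.

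Other samples stood apart for fewer values, again given as the log2 level against that of the nearest sample of the group. p110αhep-/- replicate 1 stood apart for Gys2 14.95 against 15.26. p110αhep-/- replicate 2 stood apart for the list of FOXO-activated genes 10.89 against 11.18. p110αhep-/- replicate 4 stood apart for Insr 7.64 against 7.79 and Nsdhl 7.3 against 7.6. p110αhep-/- replicate 5 stood apart for Lep 8.63 against 7.61. p110αhep-/- replicate 6 stood apart for the list of PI3K subunits 8.02 against 8.16 and the list of acute phase 14.48 against 14.12. p110αhep+/+ replicate 1 stood apart for Apom 14.24 against 14.43, Fst 7.7 against 6.76, Igfbp2 11.42 against 12.36, Pik3cb 8.81 against 9.1, Rnase4 12.28 against 12.75, Tango6 7.52 against 8.08, the list of xenobiotic P450 13.34 against 13.62 and the list of neutrophil 9.62 against 8.79. p110αhep+/+ replicate 2 (averaged with 6) stood apart for Alb 18.95 against 18.89. p110αhep+/+ replicate 3 stood apart for Slc27a1 8.77 against 8.26 and the list of sinusoidal endothelial cell 10.27 against 10.59. p110αhep+/+ replicate 5 stood apart for Jchain 11.21 against 8.52, the list of T cell 8.71 against 8.22 and the list of B cell 9.6 against 7.43.

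The effect of genotype differed between diets in fed mice for 28 of 200 genes looked at by the interaction term of the limma fit. As the log2 effect on HFD minus that on CTRL diet, it was more negative for Acaca (-1.15), Acacb (-2), Acly (-1.21), Aqp8 (-1.53), Cbr3 (-1.38), Col1a2 (-1), Cxcl10 (-1.28), Cyp51 (-1.49), Elovl6 (-1.41), Fasn (-1.85), Gsta2 (-1.75), Gstm3 (-0.81), Hamp2 (-6.74), Igfbp1 (-3.33), Ly6c2 (-1.01), Me1 (-1.59), Mki67 (-0.88), Pmvk (-0.72), Ppp1r3g (-1.83), Scd1 (-2.08), Tkt (-0.71) and Ucp2 (-0.91), and more positive for Fabp5 (2.81), Fitm1 (1), Gpat3 (2), Igfbp2 (1.17), Slc27a1 (0.8) and Tango6 (1.04). Between fed and fasted mice on HFD it differed for 15. As the effect in fed minus that in fasted mice, it was more negative for Acaca (-1.27), Acly (-1.89), Elovl6 (-1.32), Fasn (-1.79), Fgf21 (-1.58), Gpam (-1.16), Pmvk (-0.67), Pnpla3 (-3.44), Pnpla5 (-3.4), Ppp1r3g (-2.45), Rpia (-0.91) and Ucp2 (-0.61), and more positive for Agxt (0.74), Gpd1 (0.62) and Isg15 (0.96).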

How the results depend on the processing

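Between genotypes 1234 genes were called, against 213 for the interaction with diet and 249 for that with nutritional state. With no fold threshold the counts were 6327, 421 and 576. Scaling the scanner's processed signal to the 75th percentile called 1861 between genotypes. Without the filter on dim probes the interactions had 119 and 164 genes, and without array weights 114 and 151. Within washing batch 1 the interaction with nutritional state had 43, and within washing batch 2 the interactions had 4 and 65. Those fits have fewer samples. Leaving out 1 array at a time gave 1172 to 1318 genes between genotypes, 146 to 343 for diet (highest without p110αhep+/+ replicate 3) and 161 to 305 for nutritional state (lowest without p110αhep-/- replicate 2). Dct alone reversed, to 0.28 (adjusted p = 0.0738) over probes above background on all 48 arrays, a setting that takes its other probe.

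Samples that share a replicate number did not deviate together (correlations of -0.183 to 0.253), so the numbers were not taken to pair samples. The replicate block gave 1231, 202 and 268 genes. With control replicates 2 and 6 counted separately the counts were 1277, 275 and 280, and without both 1196, 157 and 209, alternatives chosen after seeing the data. Of 251 genes followed through the 31 alternatives, 149 were called, and 96 of these kept their call in every alternative that gave them a value. Some of the 96, such as Cidea and Hamp, had a value in 30 of the 31. The number of arrays limits the precision.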
